A study of Mus musculus with 8 samples.

Results

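Aminoacyl-tRNA synthetases were followed in mouse kidney epithelial cells that carry 1 or no intact copy of Pkd1, with and without the kinase inhibitor THZ1. The members were taken by gene symbol: an amino acid letter followed by ars, alone or with a 1 or a 2, together with Eprs, Farsa, Farsb and Tarsl2. The rule found 38 genes among the 18631 genes of the expression tables. Of these, 17 enzymes whose symbol ends in 2 were counted as mitochondrial, and the other 21 as cytosolic. Tarsl2, a further cytosolic threonyl enzyme, was counted as cytosolic in spite of its final 2. Kars and Gars, each of which supplies both compartments from 1 gene, were also counted as cytosolic. All 38 passed the filter on low values, a mean of at least 1 FPKM (fragments scaled by transcript length and library size) over the 8 libraries.

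An aminoacyl-tRNA synthetase joins an amino acid to the tRNA that carries its anticodon, and thereby sets which amino acid each codon is read as. Cells hold a cytosolic set for translation on cytoplasmic ribosomes and a mitochondrial set, encoded in the nucleus and imported, for the proteins encoded by mitochondrial DNA. Several cytosolic enzymes sit together in the multisynthetase complex, and many cytosolic synthetase genes are targets of ATF4, the transcription factor of the amino acid response. In the kidney tubule, a tissue rich in mitochondria, defects of mitochondrial synthetases such as Sars2 are known to cause disease.

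The study grew 2 mouse kidney epithelial cell lines, one heterozygous for Pkd1 (Pkd1+/-, the line called pkd1(PH)) and one null (Pkd1-/-, the line null(PN)), and gave each either DMSO or 50 nM THZ1 for 6 h. Pkd1 encodes polycystin-1, whose loss causes polycystic kidney disease, and THZ1 is a covalent inhibitor of the transcriptional kinase CDK7. Each of the 4 groups had 2 poly(A)-selected RNA-seq libraries, and the medium of all groups contained interferon gamma, low serum, insulin-transferrin-selenium and T3. Each genotype is 1 cell line, so loss of Pkd1 and any other difference between the lines cannot be told apart, and no label states whether the libraries of a group came from separate cultures. The p-values below therefore speak of the spread among these libraries alone, which may be technical. Pkd1 itself was listed at 4.58 and 5.30 FPKM in heterozygous DMSO cells, 3.71 and 4.20 in heterozygous THZ1 cells, 1.69 and 1.32 in null DMSO cells, and 1.22 and 1.21 in null THZ1 cells. Depth was estimated, from the steps between low FPKM values, at 17300000 to 18300000 fragments a library. Of the epithelial markers Krt8, Krt18, Pax8 and Cdh16 were high while Cdh1 and Epcam were near 0 in every library. The 8 epithelial markers summed to 962.3 to 1042.4 FPKM in heterozygous and 716.3 to 756.8 in null libraries. Krt8, Krt18, Krt19, Pax8 and Pax2 were lower in every null library, while Cdh16 was higher (175.7 to 188.5 and 259.0 to 313.6 FPKM). The 7 fibroblast markers summed to 3.71 to 4.18 and 17.0 to 24.8 FPKM. Most of this was Col1a1, at 2.90 to 3.55 and 15.7 to 23.9, and no other fibroblast marker exceeded 0.87. The part of these markers in the differences between the lines was not tested. Leukocyte markers summed to 1.82 to 5.20 FPKM, with Adgre1 and Cd3e at 0, and endothelial and podocyte markers to at most 0.20 and 0.24.

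Cytosolic and mitochondrial synthetases were separated by the level of their transcripts. Mean FPKM over the 8 libraries ran from 25.8 to 151.7 for the cytosolic enzymes other than Tarsl2, which was at 6.30, and from 2.11 for Ears2, the mitochondrial glutamyl enzyme, to 25.1 for Tars2, the mitochondrial threonyl enzyme. By this mean, and apart from Tarsl2, no cytosolic enzyme was below a mitochondrial one. Gars, the glycyl enzyme, stood highest, at 170.6 and 172.6 FPKM in heterozygous DMSO cells, 179.4 and 174.5 in heterozygous THZ1 cells, 135.2 and 134.4 in null DMSO cells, and 122.9 and 124.3 in null THZ1 cells. In bulk RNA, fewer cells and less RNA per cell cannot be told apart, and FPKM is relative to the library's total.

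Summed over each set, the cytosolic enzymes stood at 8.08 to 8.96 times the mitochondrial ones in 6 libraries, and at 12.12 and 11.83 times in the 2 libraries of null cells given THZ1. The mitochondrial sum was 173.0 and 177.9 FPKM in heterozygous DMSO cells and 162.7 and 161.4 after THZ1. In null cells it was 157.2 and 154.6 FPKM with DMSO and 101.1 and 105.1 with THZ1. The cytosolic sums were 1423 and 1438 FPKM in heterozygous DMSO cells, 1457 and 1442 in heterozygous THZ1 cells, 1377 and 1380 in null DMSO cells, and 1226 and 1243 in null THZ1 cells. The mitochondrial set was thus lowest in both null THZ1 libraries, and so, by a smaller fraction, was the cytosolic set.

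**Figure D1:**
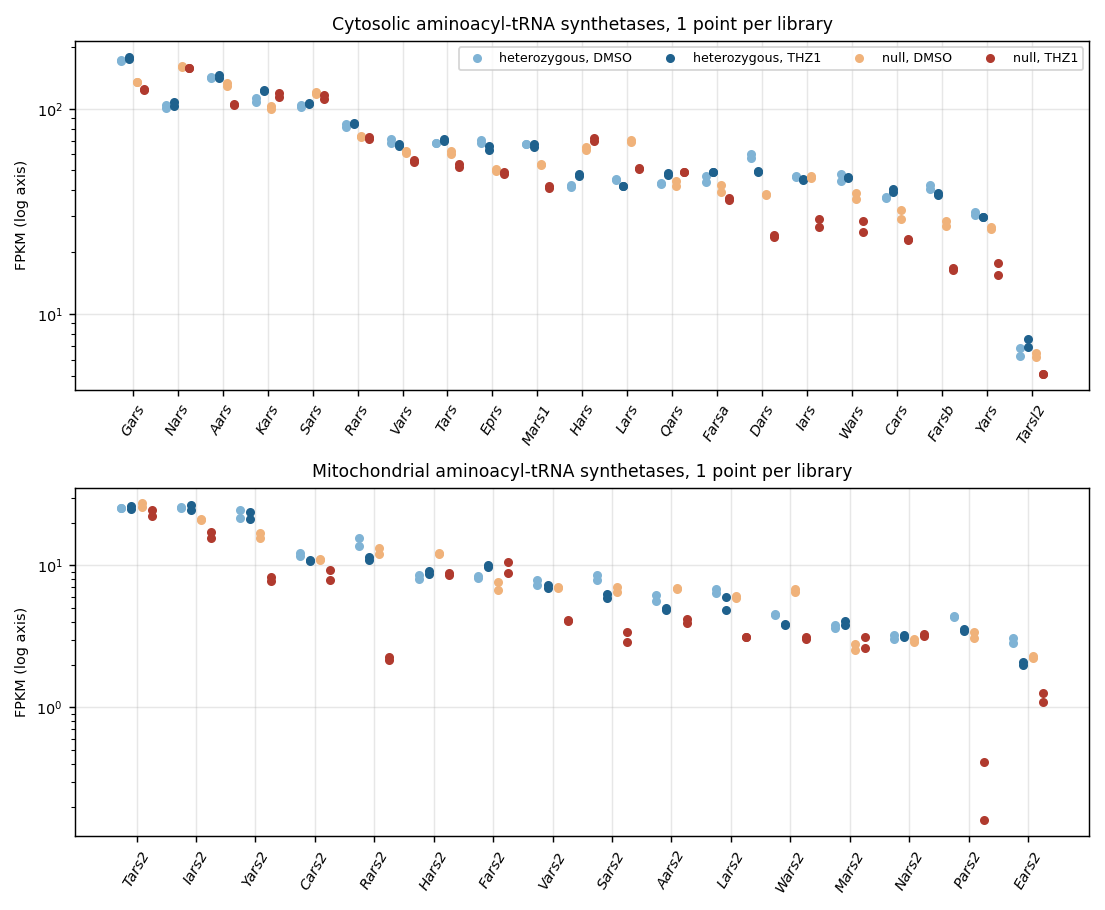
Level of 37 of the 38 synthetase transcripts in the 8 libraries, as FPKM on a log axis, with cytosolic enzymes in the upper and mitochondrial enzymes in the lower panel; each point is 1 library, coloured by group, and the enzymes are ordered by mean level. Rars2 and Pars2 drop in both null THZ1 libraries.

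Of the 4 comparisons, the response of null cells to THZ1 had the lowest median over the mitochondrial set. Differences are given as the change in log2(FPKM + 1), a scale that understates changes of low genes, with the standard error of a limma fit over all 10731 genes that passed the filter, and a gene is said to rise or fall where the two-sided limma p, adjusted over all those genes, is under 0.05. After THZ1, 14 of the 17 mitochondrial enzymes fell in null cells, 1 rose and 2 were not called, with a median of -0.64. Among the 21 cytosolic enzymes 14 fell, 3 rose and 4 were not called, with a median of -0.21. Of all genes tested 51.1% fell and 24.6% rose, with a median of -0.17, so the cytosolic share of falls was 66.7% and the mitochondrial share 82.4% against a background in which most genes moved.

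Those counts depend on how the libraries are put on a common scale. With median-of-ratios scaling, which centres the ratios of most genes on 1, the median over all genes moved from -0.17 to 0.03 and 40.7% of them rose and 36.7% fell. The cytosolic enzymes then divided into 8 that rose and 8 that fell (median 0.02), and the mitochondrial enzymes into 3 that rose and 12 that fell (median -0.45). Against genes of their own abundance the position of both sets was similar under either scale. The 6468 genes with a mean FPKM in the mitochondrial range had a median of -0.29 as deposited and -0.09 after rescaling, and 59.1% and 44.8% of them fell. The 2993 genes in the cytosolic range had medians of -0.01 and 0.22, and 38.6% and 22.2% of them fell. Calls that held under every alternative numbered 13 of 15 for the mitochondrial set and 9 of 17 for the cytosolic set.

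Rars2, the mitochondrial arginyl enzyme (chr4:34614957-34660167, GRCm38), had the largest fall. It was at 13.7 and 15.6 FPKM in heterozygous DMSO cells, 10.9 and 11.5 in heterozygous THZ1 cells, 13.4 and 12.1 in null DMSO cells, and 2.15 and 2.26 in null THZ1 cells. Both treated null libraries lay far below the other 6. The difference in null cells was -2.10 ± 0.08 (SE; limma adjusted p = 3.77e-10), leaving 17.3% of the DMSO level, while Rars, the cytosolic arginyl enzyme, differed by -0.03 and was not called.

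Pars2, the mitochondrial prolyl enzyme (chr4:106651069-106655282), came next on that scale, but fell further than Rars2 as a share of the DMSO level. Its level was 4.37 and 4.32 FPKM in heterozygous DMSO cells, 3.58 and 3.47 in heterozygous THZ1 cells, 3.39 and 3.08 in null DMSO cells, and 0.16 and 0.41 in null THZ1 cells. These treated values stand on few reads, an estimated 8 and 22 fragments against 184 and 169 in null DMSO cells. Pars2 fell by 1.73 ± 0.10 (SE) on the log2 scale in null cells (limma adjusted p = 1.105e-08), to 8.81% of the DMSO level, and in heterozygous cells its difference of -0.24 was not called. Eprs, which joins both glutamate and proline to their tRNAs in the cytosol, differed by -0.05 in null cells and was not called.

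Dars, the cytosolic aspartyl enzyme (chr1:128363707-128417416), was graded over all 4 groups. It stood at 59.8 and 57.6 FPKM in heterozygous DMSO cells, 49.5 and 49.3 in heterozygous THZ1 cells, 38.4 and 37.9 in null DMSO cells, and 23.7 and 24.1 in null THZ1 cells. No 2 groups overlapped. The difference after THZ1 was -0.25 ± 0.04 (SE; limma adjusted p = 0.0027) in heterozygous cells and -0.65 ± 0.04 (limma adjusted p = 3.129e-08) in null cells.

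Yars2, Wars2 and Sars2, the mitochondrial tyrosyl, tryptophanyl and seryl enzymes, had differences in null cells of -0.93, -0.91 and -0.90. Wars2 went from 6.84 and 6.51 FPKM to 3.05 and 3.12, and Sars2 from 7.05 and 6.46 to 3.42 and 2.90. At the other end, Fars2, the mitochondrial phenylalanyl enzyme, was the 1 mitochondrial member that rose: 7.62 and 6.71 FPKM in null DMSO cells, 10.6 and 8.86 in null THZ1 cells (0.39 ± 0.08 SE; limma adjusted p = 9.456e-04). Mars2 and Nars2 differed by 0.07 and 0.10 and were not called. The mitochondrial set was therefore not uniform: its members ranged from a loss of most transcript to a modest rise.

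Among the cytosolic enzymes Iars, Farsb and Dars fell most in null cells. Iars, the isoleucyl enzyme and a part of the multisynthetase complex, was at 46.0 and 46.9 FPKM with DMSO and 26.4 and 29.1 with THZ1 (-0.72 ± 0.05 SE; limma adjusted p = 4.113e-08), against 44.9 to 47.2 in all 4 heterozygous libraries. Farsb, the beta subunit of the cytosolic phenylalanyl enzyme, went from 28.3 and 26.7 to 16.7 and 16.3 FPKM (-0.70 ± 0.05 SE; limma adjusted p = 5.668e-08). Its partner Farsa, the alpha subunit, differed by -0.17, a call that changed sign to 0.06 under median-of-ratios scaling. Dars fell by 0.65 and Yars, the tyrosyl enzyme, by 0.63 on the log2 scale.

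Kars, Qars and Hars, the lysyl, glutaminyl and histidyl enzymes, rose in null cells by 0.20, 0.18 and 0.15. Kars was at 102.8 and 99.4 FPKM with DMSO and at 114.4 and 118.9 with THZ1 (limma adjusted p = 6.018e-04), Qars at 42.2 and 44.7 and then 49.4 and 49.0 (limma adjusted p = 0.0028), and Hars at 65.1 and 62.6 and then 69.8 and 72.2 (limma adjusted p = 0.0061). The groups did not overlap in any of the 3, as was so for 87.4% of all genes tested. With library totals as the scale Qars and Hars were no longer called (0.09 and 0.0643; limma adjusted p = 0.098 and 0.20), nor was Hars without null DMSO replicate 2 (limma adjusted p = 0.053), while the call of Kars held under all 17 alternatives. Tarsl2 went from 6.43 and 6.18 FPKM to 5.12 in both treated libraries (-0.26 ± 0.07 SE; limma adjusted p = 0.0072). Over the 17 alternatives the Tarsl2 difference ran from -0.33 to -0.06, and its call was lost in 2. Gars, the most abundant, fell by 0.12, and under median-of-ratios scaling its difference was 0.10.

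Wars, the cytosolic tryptophanyl enzyme, is known as an interferon-inducible gene, and interferon gamma was in the medium of every group. It was listed at 44.2 and 48.2 FPKM in heterozygous DMSO cells, 46.1 and 46.3 in heterozygous THZ1 cells, 39.0 and 36.3 in null DMSO cells, and 24.99 and 28.32 in null THZ1 cells. The heterozygous groups overlapped, and the null groups were separate and lower. After THZ1 Wars fell by 0.48 ± 0.06 (SE; limma adjusted p = 1.328e-05) on the log2 scale in null cells, with a difference of 0.00 in heterozygous cells. A list of 15 interferon gamma genes held, besides response genes, the receptor subunits Ifngr1 and Ifngr2 and the kinases Jak1 and Jak2. Ifngr1, Ifngr2 and Jak2 rose in heterozygous cells and were higher in the null line under DMSO and under THZ1. In null cells after THZ1, Nlrc5 fell by 1.26 and Tap1 by 0.58, while Jak1 (0.67), Ifngr2 and Jak2 rose. Of the 15, 6 rose and 6 fell there (median -0.02), where 24.6% of all genes tested rose and 51.1% fell. With median-of-ratios scaling 8 rose and 2 fell, against 40.7% and 36.7% of all genes. In heterozygous cells 5 of the 15 rose and 1 fell, Nlrc5 (-0.44), with Jak2 at 0.27 and Psmb8 at 0.16 (12.2% and 10.3% of all genes). Between the lines 8 were higher and 4 lower under DMSO (29.0% and 41.0% of all genes), with Ifngr2 at 1.17, Gbp2 at 1.21 and Psmb8 at -0.64, and 8 were higher and 7 lower under THZ1 (25.1% and 58.1%), with Ifngr2 at 1.24, B2m at 0.86 and Psmb9 at -1.0043.

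**Figure D2:**
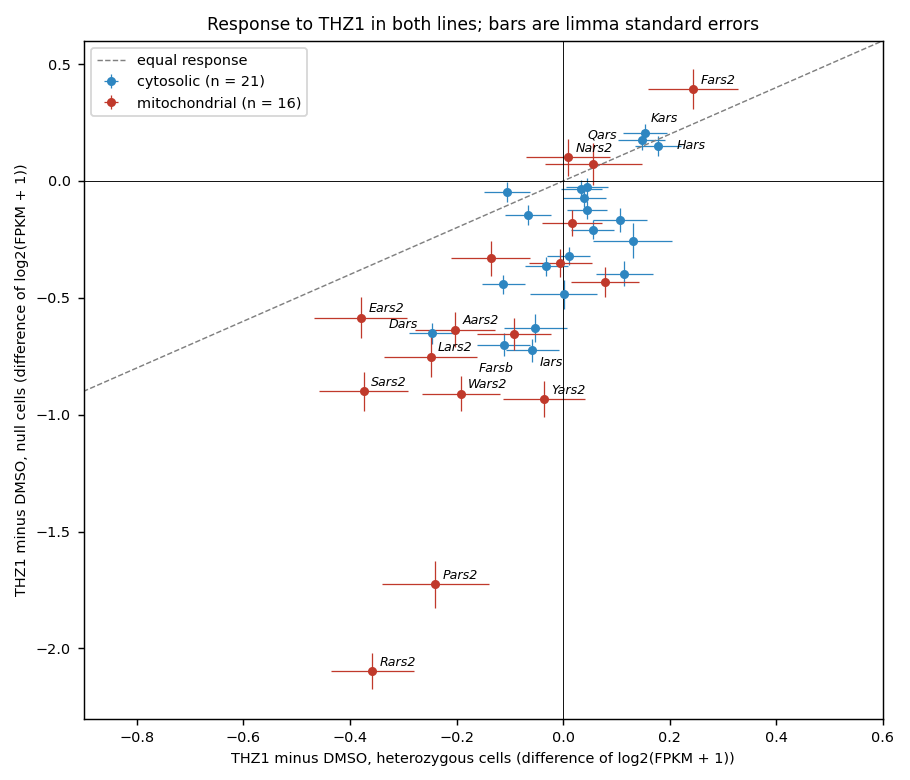
Difference in log2(FPKM + 1) after THZ1 in heterozygous cells (x axis) and in null cells (y axis) for 37 of the 38 synthetases, with cytosolic and mitochondrial enzymes in different colours, bars for the limma standard error and a dashed line for equal responses. Rars2 and Pars2 lie lowest, far under the line, and Fars2, Kars, Qars and Hars lie above 0 in both lines.

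In heterozygous cells the same treatment moved few synthetases. Of the 21 cytosolic enzymes 3 rose and 1 fell (median 0.03), and of the 17 mitochondrial enzymes none rose and 4 fell (median -0.14), where 12.2% of all genes tested rose and 10.3% fell. At an unadjusted limma p under 0.05, 1 mitochondrial enzyme was higher and 8 were lower. The cytosolic rises were Hars, from 41.3 and 42.4 to 47.8 and 47.3 FPKM (0.18 ± 0.04 SE; limma adjusted p = 0.012), Kars by 0.15 and Qars by 0.15, the same 3 genes as in null cells. Dars was the cytosolic member that fell, by 0.25.

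Ears2, Sars2 and Rars2 were among the mitochondrial members that fell in heterozygous cells. Ears2 went from 2.85 and 3.06 FPKM to 2.10 and 1.98 (-0.38 ± 0.09 SE; limma adjusted p = 0.00997), and Sars2 from 7.85 and 8.51 to 6.29 and 5.87 (-0.37 ± 0.08 SE; limma adjusted p = 0.0089). Rars2 differed by -0.36, where its difference in null cells was -2.10. These counts rest on small margins: leaving out 1 of the heterozygous libraries brought the cytosolic count of 4 down to 1 (without DMSO replicate 1, or either THZ1 replicate) and the mitochondrial count of 4 to 1 (without DMSO replicate 2) or 2 (without THZ1 replicate 2).

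Whether the 2 lines responded differently was tested as an interaction. In 12 mitochondrial and 13 cytosolic enzymes the response was lower in null cells, and in none was it higher, where 45.1% of all genes tested were lower and 15.1% higher. At an unadjusted limma p under 0.05 the count of higher responses was also 0. With median-of-ratios scaling 6 cytosolic enzymes had a higher and 6 a lower response, and 2 mitochondrial enzymes a higher and 9 a lower one, against 32.4% of all genes higher and 29.1% lower at that scale. Rars2 and Pars2 had the largest interactions, -1.74 ± 0.11 and -1.49 ± 0.14 (SE), and the interaction was -0.90 for Yars2, -0.72 for Wars2 and -0.67 for Iars. Yars2 showed this plainly: it was at 21.4 and 24.7 FPKM, then 21.2 and 23.7, in heterozygous cells without and with THZ1, and at 16.9 and 15.5, then 7.80 and 8.24, in null cells.

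Each mitochondrial enzyme was next set beside the cytosolic enzyme for the same amino acid, in 17 pairs, with Eprs serving for both Pars2 and Ears2 and Farsa for Fars2. After THZ1 in null cells the mitochondrial member lay below its cytosolic counterpart in 11 pairs and above it in 6, with a median gap of -0.31, and in heterozygous cells it lay below in 13 and above in 4, with a median gap of -0.14. The gaps of Rars2 (-2.06), Pars2 (-1.68) and Sars2 (-0.83) were the widest in null cells. In the opposite direction Fars2 lay 0.56 above Farsa, Mars2 0.44 above Mars1 and Iars2 0.37 above Iars. Expressed as levels, Rars exceeded Rars2 5.65-fold in heterozygous DMSO cells, 7.58-fold in heterozygous THZ1 cells, 5.78-fold in null DMSO cells and 32.5-fold in null THZ1 cells. The differences within pairs are descriptions with no test.

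**Figure D3:**
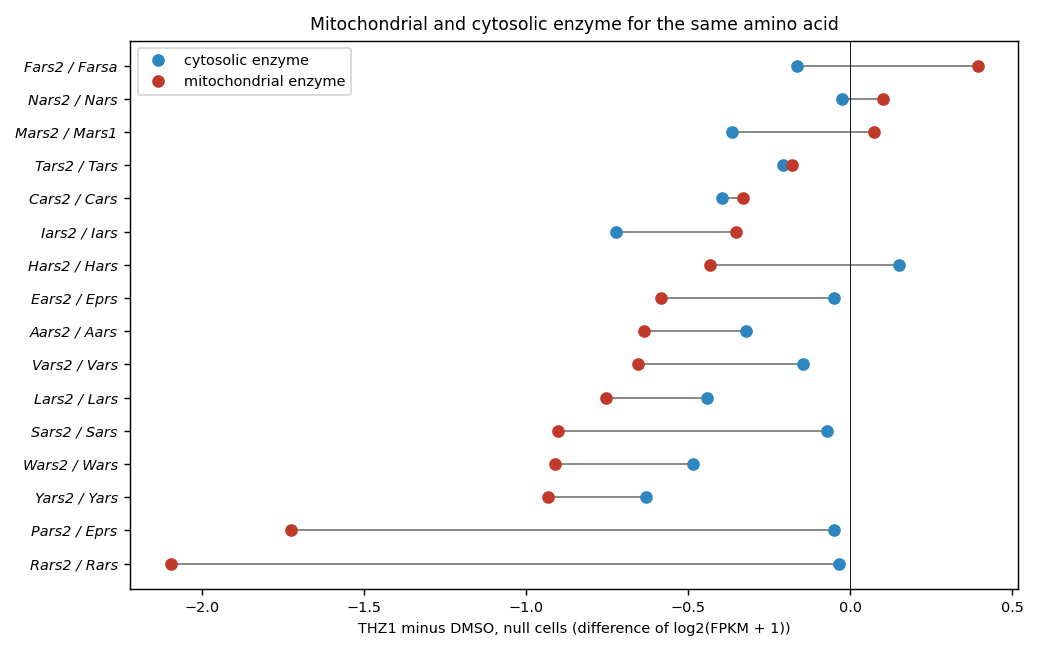
Difference in log2(FPKM + 1) after THZ1 in null cells (x axis) for 16 of the 17 pairs of enzymes (y axis), with the mitochondrial and the cytosolic enzyme joined by a line. The mitochondrial enzyme is lower in 10 of these 16 pairs, with the widest gaps for Rars2 and Pars2.

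Without the drug the lines already differed in most synthetases, as they did in most of all genes tested. In null against heterozygous DMSO cells 14 cytosolic enzymes were lower, 4 higher and 3 not called (median -0.15), and 8 mitochondrial enzymes were lower, 3 higher and 6 not called (median -0.18), where 41.0% of all genes tested were lower and 29.0% higher. With median-of-ratios scaling 8 cytosolic enzymes were lower and 4 higher, and 6 mitochondrial enzymes lower and 4 higher, where 34.4% of all genes were lower and 34.7% higher. Without DMSO replicate 2 of either line, 7 mitochondrial enzymes were called in place of 11.

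The members that were higher in null cells were Nars, Lars, Hars and Sars of the cytosolic set and Hars2, Wars2 and Aars2 of the mitochondrial set. Nars, the asparaginyl enzyme, was at 101.0 and 103.7 FPKM in heterozygous and 162.1 and 160.3 in null DMSO cells (0.65 ± 0.04 SE; limma adjusted p = 1.271e-08). Lars, the leucyl enzyme, was at 45.5 and 45.1 against 68.9 and 70.7 (0.61 ± 0.04 SE; limma adjusted p = 3.221e-08), and Hars at 41.3 and 42.4 against 65.1 and 62.6 (0.60 ± 0.04 SE; limma adjusted p = 6.526e-08). In all 3 the null level was about the same multiple of the heterozygous one, 158.0%, 154.0% and 152.0%. Hars2, the mitochondrial histidyl enzyme, was at 8.59 and 8.08 against 12.21 and 11.95 FPKM, which is 145.0%, Wars2 at 4.46 and 4.58 against 6.84 and 6.51, and Aars2, the alanyl enzyme, at 6.16 and 5.58 against 6.78 and 6.91. The Aars2 call (0.19; limma adjusted p = 0.037) was lost in 6 of 17 alternatives, with an adjusted p of up to 0.21 without heterozygous DMSO replicate 2.

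Nars, Lars, Hars and Hars2 all lie on chromosome 18, and they are the 4 members there. The 277 genes tested on chromosome 18 had a median difference of 0.56 between the lines, and 84.1% of them were higher in null cells. Sars and Wars2 lie on chromosome 3 (median 0.23), where the other member, Tars2, differed by 0.07 and was not called, and Aars2 lies on chromosome 17 (median 0.15). Low members lay elsewhere: Dars (-0.61 ± 0.04 SE), Farsb (-0.58), Eprs (-0.46), Mars2 (-0.36) and Iars2 (-0.26), all lower in null cells, lie on chromosome 1, where the median of 594 genes was -0.32. Outside chromosome 1 the lowest member was Yars2 (-0.48 ± 0.08 SE), on chromosome 16, whose median was -0.33. Gars (-0.35) on chromosome 6, Pars2 (-0.34) on 4, and Ears2 (-0.28) and Cars (-0.26) on 7 were also lower. The medians of chromosomes 6, 4 and 7 were nearer 0, at -0.07, -0.09 and -0.05.

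Over the 38 members the difference between the lines had a correlation of r = 0.88 with the median of the member's own chromosome, a description in which members of 1 chromosome share their median. The standard deviation of the differences was 0.36, and after subtraction of the chromosome median it was 0.18. Measured from its chromosome median, Wars2 was the highest member, at 0.25, and Dars stood at -0.29 and Vars at -0.33. The same correlation was 0.59 for the comparison of the lines under THZ1, -0.08 for the response to THZ1 in null cells and -0.10 for that in heterozygous cells. Copy number was not measured, and its part in these differences was not tested; the chromosome comparison was chosen after the members' values had been seen.

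**Figure D4:**
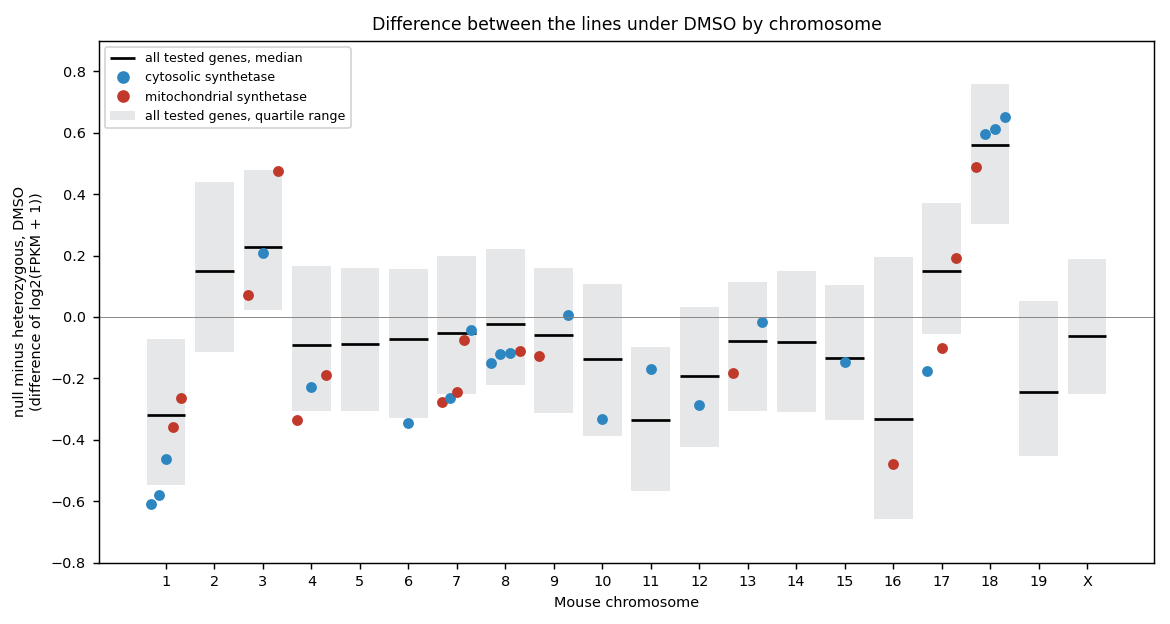
Difference in log2(FPKM + 1) between null and heterozygous DMSO cells (y axis) by mouse chromosome (x axis); points are 37 of the 38 synthetases, black lines the median and grey boxes the quartile range of all tested genes on the chromosome. The 4 members on chromosome 18 lie near its median of 0.56, and those on chromosome 1 lie below 0.

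Under THZ1 the median differences between the lines were larger. In null against heterozygous THZ1 cells 15 cytosolic enzymes were lower and 4 higher (median -0.42), and 13 mitochondrial enzymes were lower and none higher (median -0.48), where 58.1% of all genes tested were lower and 25.1% higher. At an unadjusted limma p under 0.05 no mitochondrial enzyme was higher and 14 were lower. This comparison shares its libraries with both responses to THZ1. With median-of-ratios scaling 10 cytosolic enzymes were lower and 6 higher, and 9 mitochondrial enzymes lower and 4 higher, against 41.0% and 40.6% of all genes. Rars2 (-1.93 ± 0.08 SE), Pars2 (-1.82 ± 0.10) and Yars2 (-1.38 ± 0.08) were among the lowest mitochondrial members, and Farsb (-1.17), Dars (-1.01) and Yars (-0.81) the largest cytosolic ones. Nars (0.58), Hars (0.57), Lars (0.28) and Sars (0.10) were the 4 that were higher, and the call of Sars was lost in 4 of 17 alternatives (limma adjusted p of up to 0.25, without null THZ1 replicate 1). Hars2, which was higher in null cells under DMSO, was at 8.64 and 9.07 FPKM in heterozygous and 8.60 and 8.79 in null THZ1 cells, and the groups overlapped.

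The cytosolic enzymes were also grouped by their known regulation. In null cells 10 of the 13 known to respond to ATF4 fell after THZ1 and none rose, also at an unadjusted limma p under 0.05 (median -0.32), and of the other 8, 4 fell and 3 rose (median -0.10), where 51.1% of all genes tested fell and 24.6% rose. In heterozygous cells none of the 13 was called by limma in either direction, and at an unadjusted p under 0.05 none was higher and 2 were lower. With median-of-ratios scaling 6 of the 13 fell and 4 rose in null cells (median -0.09), and 2 of the other 8 fell and 4 rose (median 0.13), against 36.7% and 40.7% of all genes. Within the multisynthetase complex 4 of 8 enzymes fell and 2 rose (median -0.21), against 10 and 1 of the 13 outside it (median -0.21). By catalytic fold, 15 of the 19 class I enzymes fell and 1 rose (median -0.44). Of the 19 class II enzymes 13 fell and 3 rose (median -0.21), against the same 51.1% and 24.6% of all genes. Eprs, which joins both glutamate and proline, was counted in class I alone, though Pars2 was counted in class II. With median-of-ratios scaling 4 enzymes of the complex fell and 4 rose, and outside it also 4 and 4. Of class I 13 then fell and 4 rose, and of class II 7 fell and 7 rose, against 36.7% and 40.7% of all genes. None of these subgroups was tested against another.

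The ATF4 transcript itself was at 255.9 and 270.9 FPKM in heterozygous DMSO cells, 219.1 and 213.5 in heterozygous THZ1 cells, 200.4 and 192.9 in null DMSO cells, and 69.9 and 70.8 in null THZ1 cells. Atf4 fell by 1.47 ± 0.04 (SE; limma adjusted p = 5.003e-11) on the log2 scale in null cells after THZ1 and by 0.28 in heterozygous cells. A list of 19 genes of the ATF4 amino acid response held Atf4 itself and Eif2ak4. Of the 19, 12 fell, with these 2 among them, and 1 rose in null cells (median -0.24). Of all genes tested 51.1% fell and 24.6% rose there. With median-of-ratios scaling 9 fell and 7 rose, against 36.7% and 40.7% of all genes. Chac1, a glutathione-degrading enzyme, fell by 3.45, from 19.3 and 18.6 FPKM to 0.65 and 1.01, and Trib3, a pseudokinase that restrains ATF4, by 2.26. Asns, asparagine synthetase, fell by 0.24, near the median of the list, which was -0.03 with median-of-ratios scaling. Phgdh was the 1 that rose (0.21), and 6 of the 19 were not called: Atf3, Atf5, Cebpb, Psat1, Sesn2 and Slc7a5. In heterozygous cells 5 of the 19 fell and 3 rose (10.3% and 12.2% of all genes), and the 3 called at the smallest adjusted p were Chac1 (-0.72), Atf4 and the cationic amino acid transporter Slc7a1 (-0.30). Between the lines under DMSO 12 were lower and 4 higher (41.0% and 29.0% of all genes), with Psat1, of serine synthesis, at -1.02, Asns at -0.78 and the related factor Atf5 at 1.46. Under THZ1 13 were lower and 3 higher between the lines (58.1% and 25.1%), with Chac1 at -3.13, Atf4 at -1.61 and Psat1 at -1.06, and with median-of-ratios scaling 13 were lower and 6 higher (41.0% and 40.6%).

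Proteins that work beside the synthetases were listed as well: scaffold proteins of the multisynthetase complex, the tRNA exporter Xpot, amidotransferase subunits, editing factors, peptidyl-tRNA hydrolases, the CCA-adding enzyme, the methionyl-tRNA formyltransferase and enzymes that make selenocysteine on its tRNA. Of these 17, 13 fell in null cells after THZ1 and none rose, also at an unadjusted limma p under 0.05 (median -0.53), where 51.1% of all genes tested fell and 24.6% rose. With median-of-ratios scaling 12 fell and 2 rose (median -0.32), against 36.7% and 40.7% of all genes. Eef1e1 and Aimp2, both scaffold proteins, fell by 1.03 and 0.64, and Xpot by 0.62. Eef1e1 was at 31.6 and 30.2 FPKM in null DMSO cells and 14.1 and 15.1 in null THZ1 cells, against 31.2 to 32.2 in the 4 heterozygous libraries. Aimp1, the remaining scaffold protein, differed by 0.04 and was not called. In heterozygous cells 1 of the 17 rose, Dtd2 (0.31), and 1 fell (12.2% and 10.3% of all genes); between the lines under DMSO 2 were higher and 8 lower (29.0% and 41.0%), with Aarsd1 at -0.97 and Ptrh2 at -0.74. Under THZ1 13 were lower and 1 higher between the lines (58.1% and 25.1%), with Aarsd1 at -1.35, Ptrh2 at -1.19 and Eef1e1 at -1.08, and with median-of-ratios scaling 10 were lower and 4 higher (41.0% and 40.6%).

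Several synthetase genes share a start region with a gene on the other strand. A protein-coding neighbour that starts within 1000 bp and runs the other way was found for 10 of the 38 members (26.3%), 6 mitochondrial and 4 cytosolic, against 12.0% of 18158 protein-coding genes of the files, a comparison made after the members' values had been seen. The neighbours did not always move with the synthetase in null cells after THZ1. Orc3, a subunit of the origin recognition complex that starts 13 bp from Rars2, went from 7.72 and 7.64 to 5.38 and 5.52 FPKM (-0.43), where Rars2 fell by 2.10.

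Fars2 and its neighbour Lyrm4, an iron-sulphur cluster factor that starts 114 bp away, moved in opposite directions: Fars2 rose by 0.39 and Lyrm4 went from 4.65 and 4.79 to 1.77 and 2.29 FPKM (-0.92). Ears2 fell by 0.58 and Ubfd1, 88 bp away, rose by 0.21. Hars and Hars2, themselves a head-to-head pair whose starts lie 197 bp apart, differed by 0.15 and -0.43. Wars with Wdr25 (-1.08) and Yars with S100pbp (-0.60) fell together, and Sars2 fell with Mrps12 (-0.22), a mitochondrial ribosomal protein. Of all genes tested 51.1% fell there (median -0.17). Kars rose by 0.20, and Terf2ip, 75 bp away, differed by 0.12 and was not called. The differences within these neighbours were not tested against each other.

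**Figure D5:**
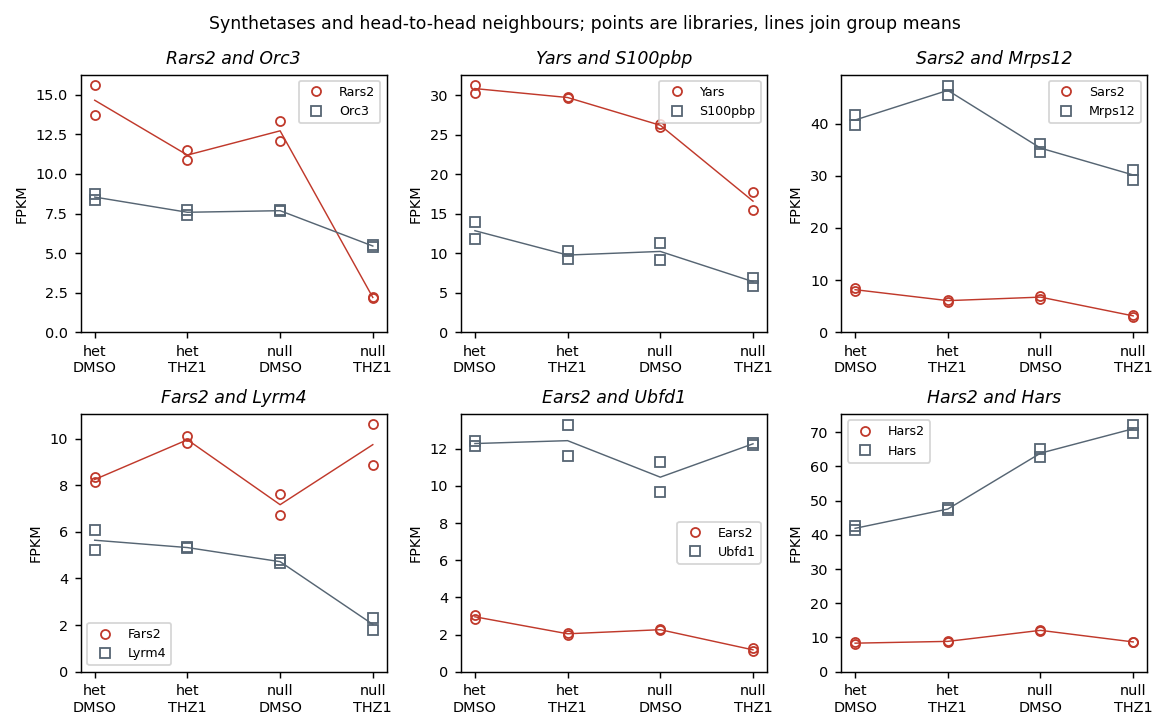
Level in FPKM (y axis) of 6 synthetases (circles) and their head-to-head neighbours (squares) in the 4 groups (x axis); each point is 1 library and lines join group means. In null THZ1 cells Rars2 drops below Orc3, and Fars2 and Lyrm4 part.

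The start regions were searched for 6 short motifs, on both strands, in windows of 300 bases (250 before to 50 after the start) from RefSeq on GRCm38.p6, which held 14 cytosolic and 14 mitochondrial members. TGATGNAA, the composite element bound by C/EBP-ATF dimers such as those of ATF4, occurred in 5 of 14 cytosolic members (Aars, Gars, Iars, Tars and Yars), in no mitochondrial window, and in 3.97% of 32851 windows of the same length. The 5 are shown because all belong to the enzymes known to respond to ATF4. Each line reads 5′ to 3′ on the strand of the gene, with the match, or its reverse complement, in capitals: Aars at chr8:111033704-111033763 (plus strand), Gars at chr6:55037941-55038000 (plus), Iars at chr13:49682126-49682155 (plus), Tars at chr15:11399659-11399718 (minus) and Yars at chr4:129189895-129189924 (plus).
Aars: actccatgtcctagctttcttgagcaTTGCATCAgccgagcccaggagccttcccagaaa
Gars: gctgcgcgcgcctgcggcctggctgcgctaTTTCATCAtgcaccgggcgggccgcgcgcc
Iars: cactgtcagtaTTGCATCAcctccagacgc
Tars: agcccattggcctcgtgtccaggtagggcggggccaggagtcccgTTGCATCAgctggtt
Yars: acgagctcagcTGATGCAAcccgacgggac
After THZ1 in null cells these 5 differed by -0.32 (Aars), -0.12 (Gars), -0.72 (Iars), -0.21 (Tars) and -0.63 (Yars). Members with the same letters thus ran from the largest to the smallest of the called cytosolic falls. At the deposited scale none of the 5 was among the cytosolic members that rose or were not called. There 14 of the 21 cytosolic enzymes fell, as did 51.1% of all genes tested. Aars, Gars and Tars differed by -0.09, 0.10 and 0.02 with median-of-ratios scaling. The part of the motif in these differences was not tested. The Aars window held a further match, which is not shown.

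GCGCATGC, the element of NRF1, a factor of nuclear genes for mitochondrial proteins, occurred in 3 mitochondrial members (Rars2, Vars2 and Wars2), in no cytosolic window, and in 2.71% of all windows. These are shown because Rars2 and Wars2 are among the members that fell most: Rars2 at chr4:34614895-34614924 (plus), Vars2 at chr17:35667605-35667664 (minus) and Wars2 at chr3:99141000-99141059 (plus), with the matches in capitals, 2 of them in Vars2.
Rars2: cggccccgtgtGCATGCGCactccacactt
Vars2: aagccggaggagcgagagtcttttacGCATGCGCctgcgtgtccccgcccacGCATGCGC
Wars2: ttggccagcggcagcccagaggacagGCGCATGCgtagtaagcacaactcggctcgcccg
In null cells after THZ1 the 3 fell by 2.10, 0.66 and 0.91. There 14 of the 17 mitochondrial enzymes fell (median -0.64), as did 51.1% of all genes tested. Sars2, whose window held no such match, fell by 0.90. The 3 windows were picked partly by these falls, and the part of the motif was not tested. CCGGAAG, the core of ETS sites, was in 5 cytosolic and 4 mitochondrial members (8.86% of all windows), CACGTG, the E-box, in 4 and 1 (7.15%), CCAAT in 7 and 6 (37.41%) and TATAAA in 1 and 2 (13.62%). A match describes the letters of the window only, and the windows of Aars, Iars and Tars held both CACGTG and TGATGNAA.

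Some members share exon sequence with another gene, and since the strand setting of the counting is not given in the sources used here, reads over those stretches cannot be assigned with certainty. The largest shares were in Iars2, 22.9% of whose exon bases (2034 bp) lie within exons of Rab3gap2 on the opposite strand, and Aars, 14.3% (1326 bp) with Exosc6 on the same strand. For Farsb the share was 9.5% with Sgpp2, and for Fars2 8.7% with Nrn1.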

How the data were processed

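RNA-seq was deposited as 1 table per library, and the values are FPKM as the authors deposited them, with 2 decimals and Entrez gene identifiers. Per the labels' protocols, RNA was extracted with TRIzol and selected with oligo dT. Bowtie2, DESeq2 and the mm10 build are named in the submitters' processing notes; the counting program, annotation and strand setting were not given in the sources used here. Depth and its precision were therefore estimated from the FPKM steps of low genes. Of 18631 genes, 18592 had a symbol. From the deposited values log2(FPKM + 1) was computed, genes under a mean of 1 FPKM were dropped, and 10731 genes were fitted with limma 3.58.1 (R 4.3.3) with a mean per group, an intensity trend, 4 residual degrees of freedom and Benjamini-Hochberg adjustment over all genes, and a gene was called under 0.05. The fit was tested on simulated data. Genes named in full were Pkd1, the 3 called members with the largest rise and fall per comparison and compartment, and Wars, Gars, Kars, Qars and Tarsl2, and from each other list the 3 called genes of smallest adjusted p; further members named for contrast, the head-to-head neighbours and the motifs were chosen after their values were seen. The members and lists were chosen with earlier results of these data known. Alternatives were 3 other scalings, a pseudocount of 0.1, other filters, other limma settings, other class rules and leaving out each library. Start sites and overlaps came from Gencode vM21 on GRCm38. The counts include 1 member and 1 gene of another list whose own values are not reported here.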

Additional observations from a re-analysis of the deposited data

Results flagged for a closer look

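The response to THZ1 was lower in null than in heterozygous cells for 45.1% of all genes tested, and higher for 15.1%. This was by the interaction term of the limma fit, at an adjusted p under 0.05. By the same term the response differed in 25 synthetases, and in all 25 it was lower in null cells. On the log2(FPKM + 1) scale, the mitochondrial enzymes among them included Rars2 (-1.74), Pars2 (-1.49), Yars2 (-0.90), Wars2 (-0.72), Vars2 (-0.56), Sars2 (-0.53), Hars2 (-0.51), Lars2 (-0.50), Aars2 (-0.43), Iars2 (-0.35) and Tars2 (-0.20). The cytosolic enzymes were Iars (-0.67), Farsb (-0.59), Yars (-0.58), Cars (-0.51), Wars (-0.49), Dars (-0.41), Tarsl2 (-0.39), Mars1 (-0.33), Aars (-0.33), Lars (-0.33), Farsa (-0.27), Tars (-0.26) and Gars (-0.17). Of these calls 9 of the 12 mitochondrial and 6 of the 13 cytosolic ones held under every alternative. With median-of-ratios scaling 8 synthetases had a higher and 15 a lower response in null cells, against 32.4% and 29.1% of all genes. Groups of 2 libraries are too small for a search for single libraries that stand apart.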

How the results depend on the processing

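Values are log2 differences or counts of called members. Among members called under at least 1 of the 2 scales, the sign turned with median-of-ratios scaling for THZ1 in null cells in the cytosolic median (0.0173) and in Eprs (0.18), Farsa (0.0587), Gars (0.10), Nars (0.20), Rars (0.19), Sars (0.16), Tars (0.0173), Vars (0.08) and Tars2 (0.0422); for null against heterozygous THZ1 cells in Kars (0.24), Rars (0.0702), Vars (0.053), Aars2 (0.0148), Fars2 (0.25), Hars2 (0.26), Tars2 (0.18) and Wars2 (0.0004); and for the interaction in Gars (0.0677), Hars (0.21), Nars (0.17), Rars (0.17) and Tars2 (0.0328). Kars turned with upper-quartile scaling for null against heterozygous THZ1 cells (0.11), and the cytosolic median for THZ1 in heterozygous cells with library totals (-0.0122). The cause was not tested beyond the change of scale itself.

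Other medians that moved beyond the spread between replicates were, with median-of-ratios scaling, between the lines under DMSO -0.0783 (cytosolic) and -0.11 (mitochondrial), for THZ1 in null cells -0.45 (mitochondrial), between the lines under THZ1 -0.12 and -0.30, and for the interaction -0.0395 and -0.29. With upper-quartile scaling they were -0.0871 and -0.12, 0.0127 (cytosolic, THZ1 in heterozygous cells), -0.12 and -0.56, -0.25 and -0.38, and -0.16 and -0.41. With library totals they were -0.11 (cytosolic, DMSO), -0.18 (mitochondrial, heterozygous), -0.29 and -0.71 (null), and -0.31 (cytosolic, interaction). A pseudocount of 0.1 gave mitochondrial medians of -0.76, -0.64 and -0.56 for THZ1 in null cells, the lines under THZ1 and the interaction. A mean of at least 5 FPKM, which tests fewer members, gave 7 mitochondrial calls under DMSO and a mitochondrial median of -0.62 between the lines under THZ1. A robust fit with no trend called 2 cytosolic enzymes for THZ1 in heterozygous cells. Counting classes by the final character gave -0.19 (cytosolic, THZ1 in null cells), and leaving Gars and Kars out gave 0.0101, -0.26 and -0.33 (heterozygous, null, interaction).

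Leaving out 1 library at a time gave 1 to 4 cytosolic and 1 to 5 mitochondrial calls for THZ1 in heterozygous cells and 7 to 12 mitochondrial calls between the lines under DMSO (7 without DMSO replicate 2 of either line). Medians ranged, cytosolic then mitochondrial, from -0.23 to -0.18 and -0.65 to -0.59 (THZ1 in null cells), -0.33 to -0.24 and -0.50 to -0.45 (interaction) and -0.19 to -0.14 and -0.25 to -0.12 (lines under DMSO), and the mitochondrial one from -0.54 to -0.45 (lines under THZ1). Same-numbered libraries deviated together with correlations of -0.09 to 0.14, so the numbers were not taken as pairs; a replicate block kept 188 of 190 member values on their side of the threshold, with 10 mitochondrial calls between the lines under DMSO.

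The number of libraries and the low FPKM of the mitochondrial set limit precision, and no counts or copy number were used here; Pars2 rests on an estimated 8 and 22 fragments in null THZ1 cells.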
